A study of Mus musculus with 14 samples.

Results

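The comparison of mice before symptoms with naive mice took in 8 of the 13 libraries with counts in a retinal RNA-seq study. The study was of experimental autoimmune encephalomyelitis (EAE), a model of multiple sclerosis in which immune cells attack myelin. The 8 were every library labelled as the pre stage (4, called pre here) and every naive library in the count table (4), over all 40840 genes. All mice were female and 7 to 8 weeks old. Naive mice carried the treatment label Control and pre mice the label EAE with the stage before clinical signs. No mutation, transgene or Cre driver is named for either group. The labels call the cells retinal ganglion cells from eyes, with total RNA taken by a miRNeasy kit, and describe no sort. Nothing in them states that each library came from its own mouse, and the p-values therefore cover only the spread between these samples.

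Retinal ganglion cells are the output neurons of the eye, and their axons form the optic nerve, which is a frequent site of attack in multiple sclerosis and in EAE. Microglia are the resident immune cells of the retina, and neutrophils are blood cells that enter tissue early in inflammation. In EAE, T cells are primed outside the nervous system before clinical signs appear. Cells that must fold more secreted and membrane protein raise chaperones of the endoplasmic reticulum (ER) through the unfolded protein response.

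Gene totals ran from 3308627 to 6590972 counts in naive and from 2910710 to 6168741 in pre. Replicates correlated across genes at r = 0.935 to 0.984 in naive and 0.964 to 0.981 in pre, and naive with pre libraries at 0.946 to 0.973 (genes are not independent replicates). Levels are given as CPM, counts scaled to each library's total with TMM factors. Markers of the labelled cell type were detected, beside markers of other cells. The 12 ganglion cell markers summed to 874 to 1331 CPM in naive and 964 to 1447 in pre, and the 14 amacrine cell markers to 5799 to 8501 and 7122 to 7817. Much of the ganglion cell sum was Thy1, which other cells also make, and the neurofilament genes Nefl and Nefm. In naive 1 these were at 648, 140 and 180 CPM, while the more specific Rbpms, Slc17a6 and Pou4f1 were at 3.77, 1.26 and 2.20. In pre 3 the latter were at 64.6, 70.5 and 56.9 CPM. The 15 rod markers summed to 855, 1054, 4580 and 6808 CPM in naive replicates 1, 2, 4 and 5, and to 828, 1090, 1345 and 3576 in pre replicates 1 to 4. Naive 4 and naive 5 thus held more rod RNA than any pre library, and naive 1 and naive 2 about as little as pre 1 and pre 2. The rod index, the mean log2 CPM of these markers, was 3.71, 4.42, 7.43 and 7.95 in those naive libraries and 4.11, 4.69, 5.15 and 6.92 in pre. Of the 8 red blood cell genes, 7 had 0 counts, the globin genes among them being near-identical copies whose counting is uncertain.

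The question was which transcripts differ ahead of clinical signs. The calprotectin gene S100a9, the neutrophil gene Retnlg and the sulphonylurea receptor gene Abcc8 were among the genes with the smallest p and higher levels in pre. The membrane protein gene Tlcd4 and Aldh6a1, a mitochondrial enzyme, were among those with the smallest p and lower levels. No gene of 14893 tested passed an adjusted p of 0.05 (0%) in edgeR's quasi-likelihood test with Benjamini-Hochberg adjustment, where the smallest adjusted p was 0.807. Values of this fit given below are therefore differences that did not pass over all genes. At an unadjusted p below 0.05, 334 genes were higher (2.24%) and 498 lower (3.34%). The groups did not overlap for 203 genes higher in pre (1.36%) and for 241 lower (1.62%). The median log2 fold change over all tested genes was -0.02, and 45.7% were above 0. Counts within each gene list below are to be read beside these shares. DESeq2 called 6 genes (0.0403%) and limma-voom 0.

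**Figure D1:**
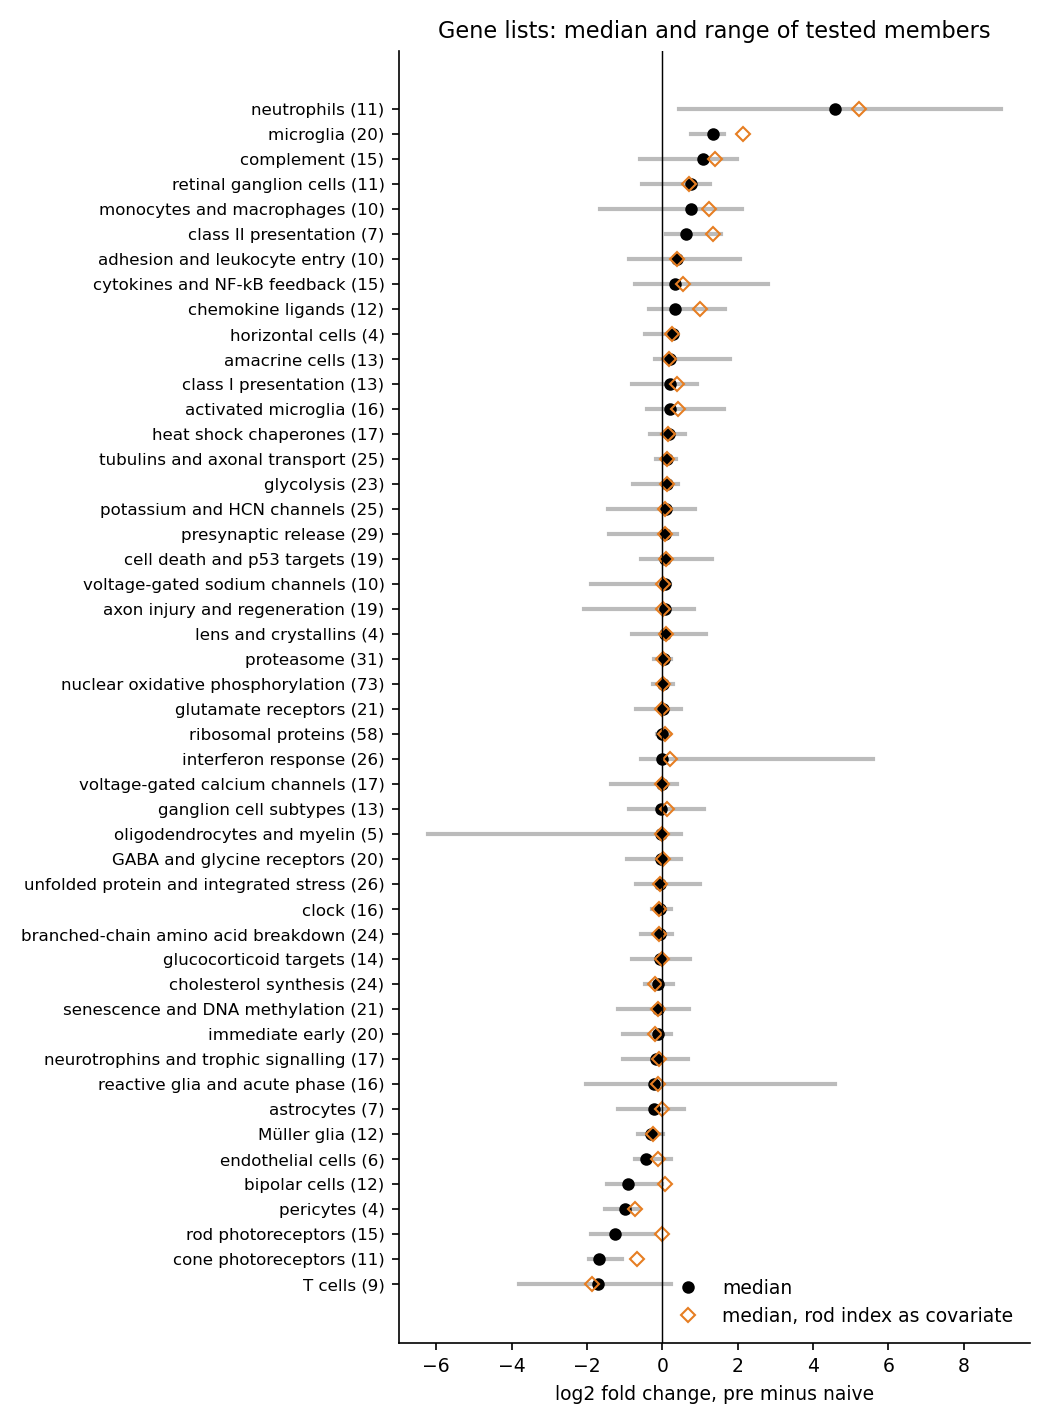
Log2 fold change of pre minus naive (x axis) for each gene list with at least 4 tested members (number in brackets). Black circles are medians of the main fit, grey lines the lowest to highest member, and orange diamonds medians with the rod index as a covariate. Neutrophil genes lie farthest to the right at a median of 4.59, which rests partly on genes with 0 counts in naive, and T cell and photoreceptor lists farthest to the left.

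Several neutrophil-associated transcripts had 0 counts in the naive libraries and were detected in every pre library, while others on the list were present in naive or missing from some pre libraries. S100a9, a subunit of the inflammatory protein calprotectin, was at 0 CPM in all 4 naive libraries and at 9.07, 19.7, 8.03 and 17.1 CPM in pre 1 to 4. Its partner S100a8 was at 0 in naive and at 2.42, 9.70, 3.14 and 6.54 in pre. Both were high in pre 2 and pre 4 and lower in pre 1 and pre 3, with no overlap with naive. Retnlg, a resistin-like protein of neutrophils, was at 0 in naive and at 0.807, 2.96, 1.75 and 2.01 in pre. Against a floor of 3 counts over the naive group, S100a9 was at least 79.8-fold higher, S100a8 at least 32.3-fold and Retnlg at least 11.1-fold. DESeq2 gave adjusted p = 1.64e-08 for S100a9, 0.000168 for S100a8 and 0.0172 for Retnlg, against 0.807 in edgeR for each. In bulk samples more cells of a type and more RNA per cell cannot be told apart.

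Other myeloid genes followed the same split. Slfn4, a Schlafen family gene of myeloid cells, was at 0 in naive and at 0.807, 2.14, 4.54 and 4.78 CPM in pre. It was at least 18.1-fold higher (DESeq2 adjusted p = 0.0248, edgeR 0.807), and its highest libraries were pre 3 and pre 4, unlike calprotectin. Ifitm1, an interferon-induced membrane protein, was at 0 in naive and at 1.21, 0.987, 2.10 and 1.01 in pre, at least 7.84-fold higher (edgeR adjusted p = 0.807). Cxcr2, the chemokine receptor that guides neutrophils, had 1 count over the naive libraries and was at 1.01, 1.97, 2.10 and 2.77 CPM in pre, a ratio of 33.8 with a 95% exact counting interval of 5.66 to 1372. Hp, the haemoglobin-binding acute phase protein haptoglobin, also had 1 naive count and was at 0.807, 1.81, 1.40 and 4.03 CPM in pre (ratio 34.8, interval 5.84 to 1412). Neither Cxcr2 nor Hp overlapped between groups, and such intervals cover counting error only.

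**Figure D2:**
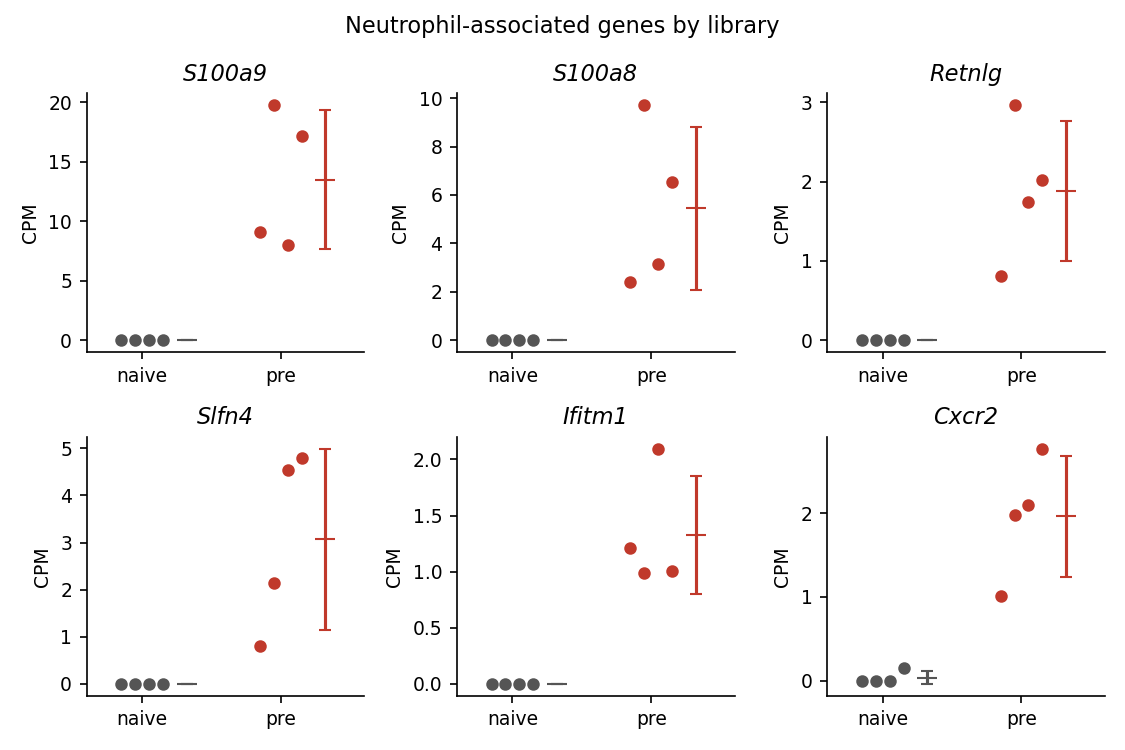
CPM (y axis) of 6 genes in each naive (grey) and pre (red) library, with the mean and SD (n = 4) beside the points. All 4 naive libraries are at 0 for each gene except Cxcr2, which had 1 count in naive 5, and every pre library is above them.

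Granule genes were uneven across the pre libraries. Of the 18 neutrophil list genes, 11 passed the filter on low counts, and a gene silent in naive could pass only through another group, so their directions are given without support. All 11 were higher, 7 of them at an unadjusted p below 0.05 (2.24% of all genes) and 4 without overlap (1.36% of all genes). Ltf, the iron-binding protein lactoferrin, was at 0 in naive and at 0.807, 1.97, 0 and 1.51 CPM in pre. Ngp, a neutrophil granule protein, was at 0, 2.47, 0 and 0.503 CPM in pre. Lcn2, which binds bacterial siderophores, was at 0 to 0.455 CPM in naive and 0.807, 4.93, 0.349 and 2.01 in pre. Ltf, Ngp and Lcn2 were highest in pre 2. Mmp9, a matrix protease that other cells also make, was at 336, 193, 97.4 and 108 CPM in naive and 305, 213, 141 and 343 in pre, so the groups overlapped for the most abundant member of the list. The defining neutrophil surface gene Ly6g had 1 count over the 8 libraries, the granule enzyme Mpo 1 and Elane 0. With members at 0 in naive set to their bound, the median of the 11 was 2.67 in place of 4.59.

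Among cytokine and NF-kB genes, Il1b, Il6ra and Tnfaip2 were higher at low levels, and their cell source was not tested. Il1b, the precursor of interleukin-1 beta, was at 0, 2.10, 0.480 and 0.606 CPM in naive and 2.42, 4.11, 7.33 and 6.04 in pre (log2 fold change 2.57 ± 1.02 SE, edgeR adjusted p = 0.807). Il6ra, the interleukin-6 receptor, was at 2.83 to 5.15 CPM in naive and 5.26 to 12.6 in pre. Tnfaip2, a gene induced by tumour necrosis factor, had 3 naive counts and was at 0.605 to 2.77 CPM in pre. These 3 were the members of the 15 tested cytokine and NF-kB genes that had an unadjusted p below 0.05 and no overlap. Of all genes, 2.24% were higher at that p and 1.36% were higher without overlap. Over the 15, 12 were higher and 3 lower with a median of 0.34. Interferon response genes divided evenly, with 12 higher and 14 lower of 26 and a median of -0.01. Beside Ifitm1, the interferon signalling factor Irf9 had an unadjusted p below 0.05 (0.37 ± 0.15), and Irgm1, an interferon-induced GTPase, was lower without overlap, at 4.09 to 5.77 CPM in naive and 2.82 to 3.84 in pre.

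Microglial genes were higher in pre by their means, and their naive values were split by library. Csf1r, a receptor that microglia need to survive, was at 21.7, 23.4, 100 and 128 CPM in naive 1, 2, 4 and 5 and at 134, 106, 263 and 282 in pre. C1qb, a subunit of the complement initiator C1q, was at 6.92, 8.40, 31.4 and 41.1 and at 43.6, 40.9, 94.6 and 110. Naive 1 and naive 2 lay far under every pre library for both genes. Naive 4 was also below every pre library, but naive 5 lay above pre 2 for both genes, so the groups overlapped. Aif1, the calcium-binding protein Iba1, did not overlap, at 0.629 to 3.18 CPM in naive and 3.62 to 11.8 in pre. All 20 microglial markers were tested and all were higher, with a median log2 fold change of 1.35 and a range of 0.75 to 1.65. Of the 20, 2 had an unadjusted p below 0.05 (2.24% of all genes were higher at that p) and 1 did not overlap (1.36% of all genes).

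Microglial and rod transcripts had the same order over the naive libraries but not over the pre libraries. The 20 microglial markers summed to 155, 161, 648 and 816 CPM in naive 1, 2, 4 and 5 and to 772, 645, 1499 and 1660 in pre 1 to 4. Pre 1 had the lowest rod index of its group and more microglial RNA than pre 2. With the rod index as a covariate, edgeR called 93 genes higher (0.624%) and 2 lower (0.0134%), and 18 of the 20 microglial markers were among the higher ones (median 2.15). In that fit 46.7% of all genes were above 0. The smallest p in that fit belonged to Ly86, a partner of a Toll-like receptor homologue (2.48, adjusted p = 0.00368), and Inpp5d, a lipid phosphatase of myeloid signalling (2.04, adjusted p = 0.00368). Pld4, C1qb, C1qa and Ncf1, a subunit of the phagocyte oxidase, followed at adjusted p = 0.00409 each, then Capn3 and Aif1 at 0.0052. Without the 4 libraries of highest rod index (naive 4, naive 5, pre 4 and an onset library), all 20 microglial markers were again higher with a median of 2.69, 19 at an unadjusted p below 0.05. That fit called 0 genes (smallest adjusted p = 0.0882) and rests on 2 naive libraries. The part of rod content in the microglial difference was not tested beyond these fits.

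**Figure D3:**
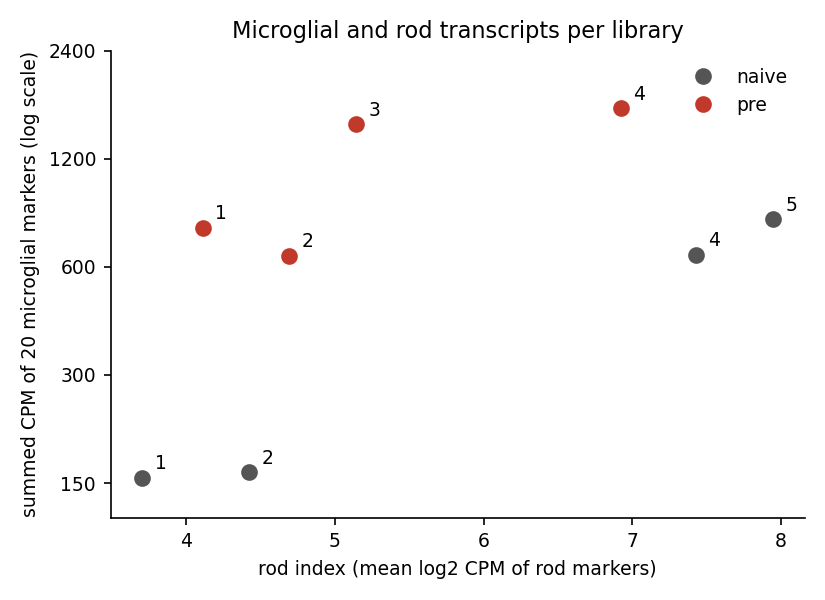
Summed CPM of 20 microglial markers (y axis, log scale) against the rod index (x axis) in each naive (grey) and pre (red) library, numbered by replicate. Naive libraries with a low rod index hold 155 and 161 CPM and those with a high one 648 and 816, while pre libraries hold 645 to 1660.

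Related myeloid lists leaned the same way. Of 15 complement genes tested 13 were higher, with a median of 1.09. Complement receptor C5ar1 was at 0 to 1.52 CPM in naive and 0.807 to 5.03 in pre, with overlap, and C3, the central component, at 0.629 to 2.27 and 2.96 to 4.78, without overlap. Csf3r, the receptor for granulocyte colony stimulating factor, was at 1.89, 1.57, 13.4 and 10.8 CPM in naive and 12.9, 16.4, 33.5 and 32.2 in pre, a pattern over libraries like that of Csf1r. Of 10 monocyte and macrophage genes 8 were higher (median 0.76), with the macrophage receptor Adgre1 at 1.05 to 6.22 and 6.45 to 11.5 CPM, without overlap. Nfam1, an activating receptor of myeloid cells, was at 0.314 to 3.34 and 3.63 to 11.1, also without overlap. Microglial activation genes were less uniform, with 12 higher and 4 lower of 16 and a median of 0.20. All 7 tested class II presentation genes were higher (median 0.63), as were 8 of 13 class I genes, whereas Tap2, a peptide transporter, was lower without overlap at 9.75 to 20 and 7.26 to 8.72 CPM.

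T cell genes were at low levels and were not higher in pre. Cd3g, a chain of the T cell receptor complex, was at 2.52, 2.10, 0 and 0.303 CPM in naive 1, 2, 4 and 5 and at 0, 0, 0 and 0.252 in pre. Cd4, the helper T cell coreceptor, was at 2.83, 2.62, 0 and 0.455 in naive and 0.202, 0.164, 0 and 0 in pre. Both were carried by naive 1 and naive 2 and overlapped between groups. Of 9 tested T cell genes 7 were lower, with a median of -1.7, and 2 had an unadjusted p below 0.05, both lower (3.34% of all genes). That number was 0 without naive 1, naive 2, pre 1 or pre 2. Naive 1 and naive 2 are also the libraries with the least microglial RNA.

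The 26 unfolded protein and integrated stress genes had no common direction, with 11 higher, 15 lower and a median of -0.05. Of these, 7 were higher and 2 lower at an unadjusted p below 0.05 (2.24% and 3.34% of all genes), and 0 passed over all genes. Hspa5, the main ER chaperone BiP, was at 312, 447, 297 and 313 CPM in naive and 427, 534, 499 and 455 in pre (log2 fold change 0.48 ± 0.13 SE, edgeR adjusted p = 0.807). Only naive 2 reached the range of the pre libraries. Manf, a secreted neuroprotective factor induced by ER stress, did not overlap, at 33.3, 38.1, 30.7 and 31.1 in naive and 44.4, 47.4, 39.1 and 46.6 in pre (0.42 ± 0.11). Sdf2l1, a partner of ER chaperones, was at 4.09, 7.35, 4.32 and 3.64 in naive and 9.07, 9.87, 12.2 and 7.55 in pre, without overlap (1.0 ± 0.28). Pdia6, a protein disulphide isomerase, was at 71.3 to 104 and 102 to 122 CPM (0.45 ± 0.12). Xbp1, the transcription factor of the pathway, was at 61.1 to 104 and 95.8 to 127 (0.49). Pdia4 and the calcium-binding chaperone Calr completed the 7 members with an unadjusted p below 0.05 and higher levels.

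The rest of the 26 genes went the other way or stayed near 0. Ern1, the sensor that splices Xbp1 RNA, was at 29.2 to 41.4 CPM in naive and 24.6 to 31.5 in pre, and Psat1, a serine synthesis enzyme, at 40.0 to 54.9 and 26.0 to 46.4. These were the 2 lower members with an unadjusted p below 0.05. Atf4, the transcription factor of the integrated stress response, was at 293, 190, 147 and 146 CPM in naive and 131, 252, 186 and 119 in pre, with the groups overlapping. Asns, an asparagine synthase that Atf4 induces, was at 127, 73.5, 55.0 and 62.2 in naive and 34.7, 98.5, 86.6 and 28.2 in pre. Both were highest in naive 1 and, within pre, high in pre 2 and pre 3 and low in pre 1 and pre 4. The number of members higher at an unadjusted p below 0.05 was 6 to 8 with any 1 library left out, and 2 without the 4 libraries of highest rod index.

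**Figure D4:**
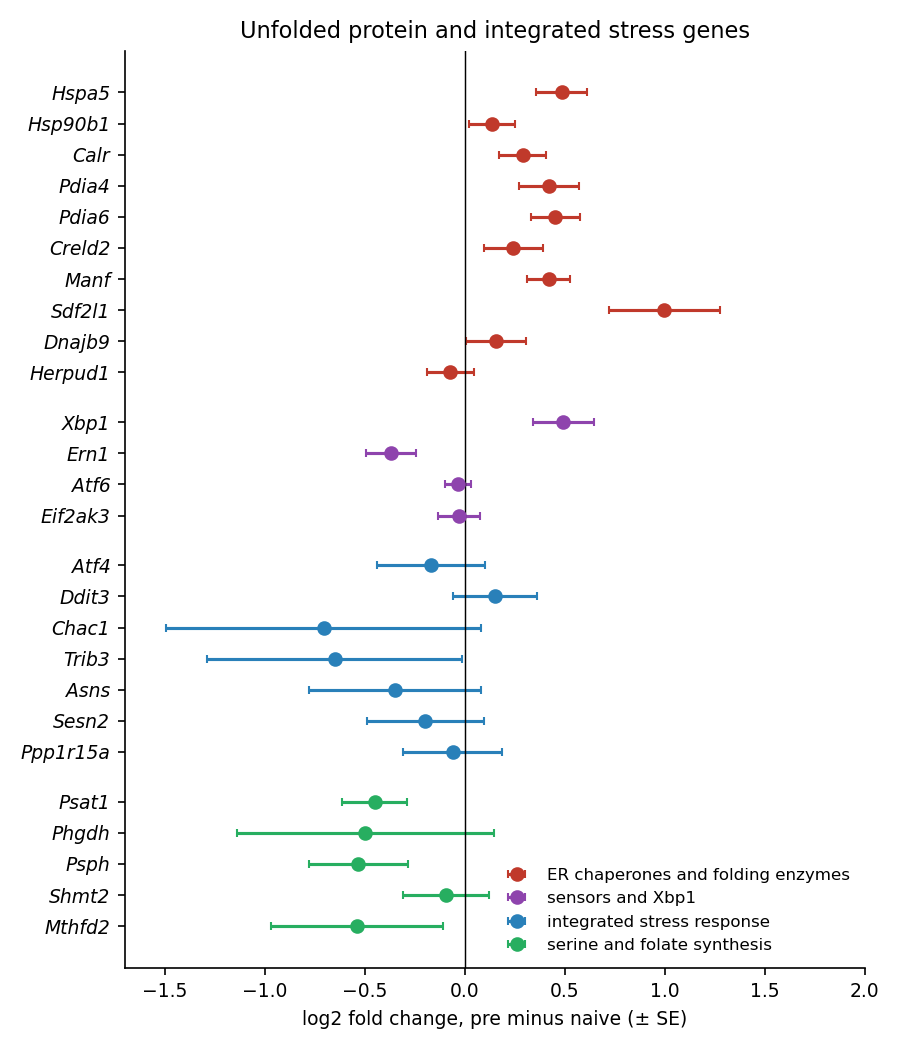
Log2 fold change of pre minus naive with its SE (x axis) for the 26 unfolded protein and integrated stress genes (y axis), coloured by role. ER chaperones and folding enzymes lie mostly right of 0, up to Sdf2l1 at 1.0, while integrated stress and serine and folate genes lie mostly left of it with wide errors.

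Some of these genes carry the ER stress response element in their promoters, shown here because it is the classical control site of ER chaperone genes. The search was for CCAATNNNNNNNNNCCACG on both strands in the 250 bases before the transcription start, in RefSeq promoters of GRCm38.p6. Of 32851 promoters 37 held it (0.113%). Of the 26 listed genes 24 had a promoter there, and 5 held the element, namely Hspa5, Pdia6, Calr, Creld2 and Hsp90b1. Sequences are 5′ to 3′ on the gene's strand, with the outer 5 bases at each end of the element in capitals, which read CGTGG and ATTGG where it lies on the reverse strand. Hspa5 is at chr2:34771840-34772089 (+), Pdia6 at chr12:17266339-17266588 (+) and Calr at chr8:84846932-84847181 (-).
Hspa5: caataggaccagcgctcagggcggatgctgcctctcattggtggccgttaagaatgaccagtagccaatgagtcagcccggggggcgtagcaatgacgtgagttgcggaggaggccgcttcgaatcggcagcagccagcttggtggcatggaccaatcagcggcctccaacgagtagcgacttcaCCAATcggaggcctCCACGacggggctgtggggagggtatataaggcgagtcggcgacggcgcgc
Pdia6: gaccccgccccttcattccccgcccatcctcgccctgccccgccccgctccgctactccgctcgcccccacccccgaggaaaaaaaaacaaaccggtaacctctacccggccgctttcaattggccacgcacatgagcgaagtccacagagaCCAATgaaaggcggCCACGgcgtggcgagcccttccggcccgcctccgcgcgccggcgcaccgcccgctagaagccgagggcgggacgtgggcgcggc
Calr: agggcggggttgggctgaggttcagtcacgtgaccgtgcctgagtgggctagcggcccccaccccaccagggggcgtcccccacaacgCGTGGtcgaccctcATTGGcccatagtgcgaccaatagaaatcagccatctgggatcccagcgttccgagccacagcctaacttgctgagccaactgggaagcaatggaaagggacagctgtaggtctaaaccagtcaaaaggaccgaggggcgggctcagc
Of the 5, Hspa5, Pdia6 and Calr were among the 7 higher genes, while Creld2 was at 20.5 to 28.1 CPM in naive and 21.4 to 32.9 in pre (0.24 ± 0.15). Hsp90b1, the ER chaperone of the Hsp90 family, was at 439 to 512 CPM in naive and 448 to 612 in pre, with overlap (0.14 ± 0.12). Sdf2l1, Pdia4 and Xbp1, also among the 7, did not hold these letters in the window, and Manf had no promoter to search. Over all 19 tested genes with the element, listed or not, 13 were higher (45.7% of all genes), with a median log2 fold change of 0.16. At an unadjusted p below 0.05, 4 of the 19 were higher and 1 lower (2.24% and 3.34% of all genes). Hspa5, Pdia6 and Calr were among these 4, so that count largely repeats the listed genes. A match is a description of the sequence and not evidence of binding.

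Cytosolic chaperones showed a smaller lean. Of 17 heat shock genes 13 were higher (median 0.17), and Hsph1, an Hsp110 chaperone, was the 1 member with an unadjusted p below 0.05, at 62.0 to 103 CPM in naive and 103 to 151 in pre. Proteasome subunits were higher in 20 of 31 (median 0.06), and in 12 of 31 without the 4 libraries of highest rod index, with Psmb2, a catalytic core subunit, at 32.9 to 39.1 and 39.1 to 44.4 CPM. Ribosomal protein genes divided at 29 higher and 29 lower of 58.

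Among neuronal genes Abcc8 stood out. Abcc8, the regulatory subunit SUR1 of ATP-sensitive potassium channels, was at 13.2, 16.8, 17.8 and 15.3 CPM in naive and 30, 21.2, 36.3 and 29.2 in pre. Every pre library lay above every naive library, and the log2 fold change was 0.88 ± 0.18 SE (edgeR adjusted p = 0.807, DESeq2 0.0722). At symptom onset it averaged 13.4 ± 2.79 CPM (SD, n = 4), and the difference of onset minus pre was -1.13 ± 0.19 (edgeR adjusted p = 0.467). That test shares the pre libraries with the comparison against naive, and onset against pre called 0 genes (0%), with 1015 at an unadjusted p below 0.05 (6.82%) and 52.8% of genes above 0. With the rod index as a covariate Abcc8 passed in pre against naive (0.92, adjusted p = 0.0398).

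Other channel and receptor genes differed by less. Kcnd3, an A-type potassium channel, was at 182 to 311 CPM in naive and 146 to 190 in pre, and was the other of 25 potassium and HCN channel genes with an unadjusted p below 0.05. Gria3, an AMPA receptor subunit, was at 208 to 253 and 252 to 320 CPM. Gabrb1, a GABA-A receptor subunit, was at 18.5 to 46.8 and 16.1 to 25.0, and Sv2b, a synaptic vesicle protein, at 177 to 402 and 173 to 228. Kcnd3, Gabrb1 and Sv2b were each highest in naive 4 or naive 5, the libraries richest in rod RNA. Of 29 presynaptic genes 21 were higher (median 0.09), but 11 without the 4 libraries of highest rod index, and of 25 tubulin and axonal transport genes 20 were (median 0.12).

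Cpne4, Serpine2 and Zbtb40 were also among the higher genes of small p. Cpne4, a calcium-dependent membrane-binding copine, was at 35.8, 28.9, 17.5 and 20.8 CPM in naive and 46.8, 54.1, 69.8 and 34.5 in pre (1.0 ± 0.25 SE, edgeR adjusted p = 0.807), with an overlap at pre 4. Serpine2, a secreted protease inhibitor, was at 23.6, 25.2, 20.6 and 18.6 and at 47.4, 29.8, 38.4 and 47.3 (0.89 ± 0.23), without overlap. Zbtb40, a zinc finger gene, was at 32.1 to 38.7 and 42.3 to 51.7 CPM (0.38 ± 0.10), also without overlap. All 3 were named for their small p, and none passed over all genes.

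Ganglion cell markers did not separate the groups. Rbpms, an RNA-binding protein restricted to ganglion cells in the retina, was at 3.77, 18.6, 9.84 and 20.3 CPM in naive and 30.9, 27.3, 64.6 and 7.05 in pre. Slc17a6, their glutamate transporter, was at 1.26, 25.7, 12.2 and 29.9 and at 27.2, 25.7, 70.5 and 5.29, and Pou4f1, a ganglion cell transcription factor, at 2.20, 23.1, 9.84 and 18.0 and at 20.8, 24.7, 56.9 and 3.52. The 3 genes were lowest in naive 1, next lowest in pre 4, and highest in pre 3. Thy1, a surface protein also made by other cells, was at 648, 626, 338 and 307 CPM in naive and 506 to 623 in pre. Nefl, the light neurofilament, was at 140 to 633 and 218 to 328. Of 11 tested markers 9 were higher with a median of 0.76, and 0 had an unadjusted p below 0.05. The differences lay within the spread between replicates.

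Of 19 axon injury and regeneration genes 14 were higher and 5 lower (median 0.07), with 2 each way at an unadjusted p below 0.05. Of all genes, 2.24% were higher and 3.34% lower at that p. Without the 4 libraries of highest rod index 9 were higher and 10 lower, with 0 at an unadjusted p below 0.05. The same numbers were found with replicate number as a block in the fit. Gadd45a, a stress and DNA damage gene, was at 33.3, 7.87, 15.6 and 79.9 CPM in naive and 8.07, 12, 6.64 and 5.29 in pre. Sox11, a transcription factor of axon injury, was lower without overlap, at 4.99 to 14.7 and 3.52 to 4.93. In the same list of 19 the growth cone protein gene Gap43 (22.3 to 29.2 and 26.9 to 35.5 CPM) and the neuronal tubulin Tubb3 (40.1 to 52.2 and 50.8 to 69.2) were higher. Bcl2l11, the death activator Bim, was at 11.55 to 15.8 CPM in naive and 7.30 to 11.53 in pre. The groups were kept apart only by the narrow gap between naive 2 (44 counts) and pre 3 (33 counts). Of 19 cell death genes Bcl2l11 was the 1 member with an unadjusted p below 0.05, and 11 were higher and 8 lower (median 0.08). With replicate number as a block 0 of these 19 had an unadjusted p below 0.05. Among 21 senescence and DNA methylation genes 14 were lower (median -0.12), with Tdg, which removes oxidised methylcytosine, at 16.3 to 17.6 and 11.7 to 15.6 CPM, without overlap. Tet2, which oxidises methylcytosine, was at 142 to 199 and 127 to 164.

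Among genes lower in pre, Tlcd4 had the smallest p of all genes. Tlcd4, a membrane protein of the TLC domain family, was at 16.0, 17.8, 19.9 and 17.1 CPM in naive and 11.3, 10, 11.2 and 10.3 in pre. The 2 groups did not overlap for this gene, which was picked by its p, and the log2 fold change was -0.73 ± 0.13 SE (edgeR adjusted p = 0.807). At onset it averaged 13.6 ± 1.51 CPM (SD, n = 4). With the rod index as a covariate Tlcd4 passed (-0.72, adjusted p = 0.0431) and was 1 of the 2 genes called lower.

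The branched-chain amino acid list divided at 9 higher and 15 lower of 24, with a median of -0.05. Aldh6a1, which breaks down intermediates of valine, was at 45.3, 36.7, 38.4 and 37.6 CPM in naive and 29.8, 30.3, 31.1 and 26.4 in pre, without overlap (-0.42 ± 0.10 SE, edgeR adjusted p = 0.807). Mccc1, a subunit of the leucine pathway carboxylase, was at 101, 70.1, 104 and 118 and at 78.0, 57.2, 62.5 and 67.7 (-0.57 ± 0.14). Only naive 2 reached into the pre range. Bcat1, the cytosolic aminotransferase that begins branched-chain amino acid breakdown, was at 133 to 162 and 111 to 148 CPM. Aldh6a1, Mccc1 and Bcat1 were the 3 members with an unadjusted p below 0.05, all lower (3.34% of all genes). Slc25a20, the mitochondrial carnitine and acylcarnitine carrier, was at 7.44 to 8.79 CPM in naive and 4.44 to 5.26 in pre, without overlap (-0.81 ± 0.20).

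**Figure D5:**
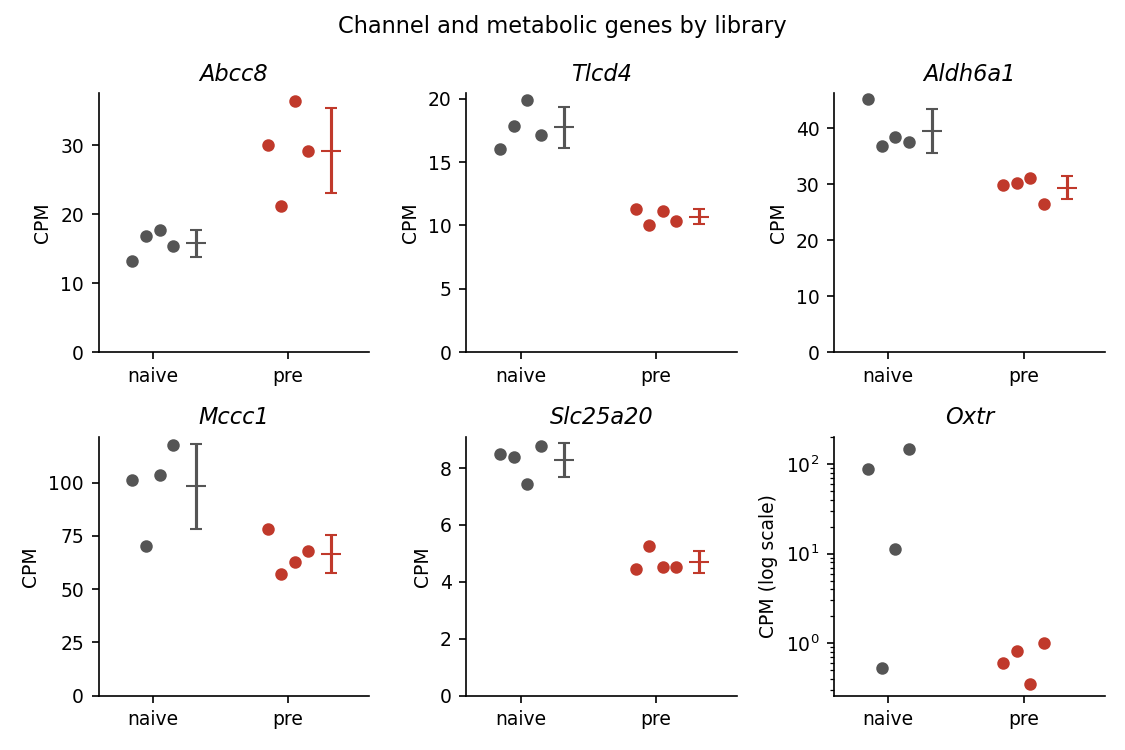
CPM (y axis, log scale for Oxtr) of 6 genes in each naive (grey) and pre (red) library, with the mean and SD (n = 4) beside the points except for Oxtr. Abcc8 is higher and Tlcd4, Aldh6a1 and Slc25a20 lower in every pre library than in any naive one, while Mccc1 and Oxtr overlap at naive 2.

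Glycolytic enzymes leaned the other way, with 18 of 23 higher and a median of 0.11. Ldha, lactate dehydrogenase A, was at 323 to 398 CPM in naive and 400, 411, 410 and 532 in pre, without overlap. The other 2 with an unadjusted p below 0.05 were Gpi1, an isomerase of sugar phosphates, at 848 to 928 CPM in naive and 921 to 1132 in pre, and Pgk1, an ATP-forming step, at 191 to 223 and 221 to 254. For comparison, 2.24% of all genes were higher at that p. Nuclear oxidative phosphorylation genes were higher in 43 of 73 (median 0.03). Cholesterol synthesis genes were lower in 19 of 24 (median -0.11), with 0 at an unadjusted p below 0.05. Without naive 1 that turned to 18 of 24 higher (median 0.09), and without pre 4 to 12 higher and 12 lower.

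Further lower genes without overlap had diverse roles. Smoc2, a matrix protein, was at 10.1, 6.82, 9.60 and 15.5 CPM in naive and 4.03, 4.93, 5.94 and 3.52 in pre (-1.21 ± 0.29 SE, edgeR adjusted p = 0.807). Ndor1, a flavin reductase of iron-sulphur protein assembly, was at 56.6 to 65.6 and 48.4 to 52.0 (-0.31 ± 0.07), Fbxo8 at 24.2 to 30.7 and 17.9 to 23.5, and Plbd2, a lysosomal protein, at 69.6 to 86.3 and 52.6 to 66.0. Sstr1, a somatostatin receptor, was at 1.26, 1.57, 8.40 and 4.40 CPM in naive and 0.329 to 0.755 in pre. Wnt9b, a secreted Wnt ligand, was at 0.525 to 2.88 CPM in naive and had 3 counts over pre (naive over pre 11.1, 95% counting interval 3.47 to 56.4). Glb1l3 and Sh2d2a, an adaptor of T cell signalling, had 1 count each over pre. Col5a2, Prss56, Gimap6, Cfap70, Itm2a and the pseudogene Nlrp5-ps made up the rest of the 10 lower genes with the largest differences and no overlap, all at low levels.

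Oxtr, the oxytocin receptor, differed most in single libraries. It was at 88.7, 0.525, 11.3 and 149 CPM in naive and 0.605, 0.822, 0.349 and 1.01 in pre. Naive 2 lay within the pre range, so the groups overlapped, although DESeq2 called the gene (adjusted p = 0.000168, edgeR 0.807). Adamts19, a matrix protease, was at 6.60, 1.57, 1.68 and 15.3 CPM in naive and 0.164 to 1.75 in pre, highest in the same 2 libraries as Oxtr. Mobp, a myelin protein, was at 1.26, 0, 0 and 5.91 in naive and 0 in all pre libraries. Naive 1 and naive 5 were thus the high libraries for Oxtr, Adamts19, Mobp and Gadd45a.

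Photoreceptor and bipolar markers were lower in pre through naive 4 and naive 5. All 15 rod markers were lower (median -1.26), all 11 cone markers (median -1.67) and all 12 bipolar markers (median -0.91), with 0 at an unadjusted p below 0.05 in each list. Rp1, a rod outer segment protein, was at 5.03, 9.97, 171 and 278 CPM in naive and 14.9, 15.1, 24.1 and 75.0 in pre. Otx2, a photoreceptor and bipolar transcription factor, was at 3.46, 4.46, 84.2 and 77.3 and at 8.07, 6.58, 17.8 and 31.7. In both genes naive 1 and naive 2 lay below every pre library, and naive 4 and naive 5 above every one. Without the 4 libraries of highest rod index these medians turned to 0.52 for rods, 0.19 for cones and 1.06 for bipolar cells. Amacrine markers were higher in 12 of 13 (median 0.22), but in 5 of 13 without those 4 libraries (median -0.05), and their median was 0.02 without naive 5 and 0.07 without naive 4. Müller glia markers were lower in 11 of 12 (median -0.30), and in 7 of 12 without naive 2 or without pre 2. Rgs5, a pericyte gene, was at 8.49, 11, 18.5 and 15.3 CPM in naive and 5.85, 2.14, 7.33 and 4.03 in pre, without overlap (-1.51 ± 0.39 SE, edgeR adjusted p = 0.807), and all 4 tested pericyte genes were lower. Reactive glia genes were higher in 5 of 16, and immediate early genes in 6 of 20, with no member of the latter at an unadjusted p below 0.05 and 11 of 20 higher without naive 1.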

How the data were processed

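The labels list 14 samples, and the count table holds 13 libraries, with 1 of the 2 peak samples absent. Of the 13, the 8 naive and pre libraries are described. The authors deposited raw read counts per gene symbol in 1 table, and per the submitters' processing notes cutadapt, HISAT2, HTSeq and DESeq2 were used. Genome build, annotation and strand setting are not given in the sources used here. Reads of overlapping or antisense genes therefore cannot be told apart. Of 40840 symbols, 39350 (96.4%) were found in the RefSeq table of GRCm38.p6. The 5 HTSeq summary lines were left out. Genes were kept by filterByExpr with a minimum count of 10 (14893), scaled by TMM and fitted over all 13 libraries with edgeR 4.0.16 in R 4.3.3, a two-sided quasi-likelihood test and Benjamini-Hochberg adjustment with a threshold of 0.05. The single library of the peak stage adds no residual spread to that fit. As the smallest group it also sets the filter, so a gene could pass the minimum count in 1 library alone. With the pre and naive libraries alone, 11 microglial activation genes were tested in place of 16. Alternatives were DESeq2 1.42.0, limma-voom (limma 3.58.1), other scaling and filters, a replicate block, a rod index covariate, and left-out libraries.

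A total of 3 counts equals 0.169 CPM over the naive group and 0.168 over pre. Floors and intervals cover counting error only. Same-numbered naive and pre libraries deviated together (r = 0.271, 0.188 and 0.289 for numbers 1, 2 and 4), which by the rule used pairs them. The main fit ignores that pairing, and only the replicate block takes it in. Some differently numbered libraries correlated as strongly (naive 5 with pre 4 at 0.314, naive 1 with pre 2 at 0.295), and the labels name no litter or batch. Named genes are the 12 each way with the smallest p, the calls of edgeR or DESeq2, the 10 each way with the largest differences and no overlap, the 4 smallest p of each list, a preset group of markers, and the 8 smallest p with the rod index as a covariate, at a mean of at least 1 CPM and with a proper symbol. Others named, such as Csf3r, Ltf, Ngp, Asns and Creld2, were chosen after their values were seen. The comparison and the lists were chosen with earlier results of these data known. The values of 1 preset marker are not reported here. The pipeline was checked on simulated data with 67, 67 and 66 genes changed 1.5-, 2- and 4-fold among 14893. In the simulated data edgeR found 26.9%, 50.7% and 86.4% of them, with 6 false calls. DESeq2 found 37.3%, 55.2% and 86.4%, with 21 false calls. Each simulated gene was drawn independently, without the differences in cell mix that genes share in the real libraries. The rates therefore check the code and do not give the power of the real comparison.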

Additional observations from a re-analysis of the deposited data

Results flagged for a closer look

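In 15 of 260 groups of 4 libraries, 1 library stood apart from the other 3 by Dixon's criterion. The 260 include groups of equal values, which could not be flagged, while a single count beside zeros is always flagged. The rate of 1 in 20 groups that the criterion gives for normal values therefore does not apply. In naive, Hspa5 was at 447 CPM in naive 2 against 297 to 313 in the others, so the overlap of Hspa5 between groups rests on that library. Psph was at 17.9 CPM in naive 1 against 10.1 to 10.8, Ddit3 at 59.1 in naive 1 against 34.9 to 38.9, and Ccl12 at 1.52 in naive 5 against 0.480 to 0.629. Gfap was at 0 CPM in naive 4 against 2.36 to 2.83. Cxcr2 at 0.152 CPM in naive 5 and Hp at 0.240 in naive 4 were single counts, with 0 in the other naive libraries.

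In pre, pre 4 stood apart for Rp1 (75.0 CPM against 14.9 to 24.1), Ldha (532 against 400 to 411) and Igfbp5 (14.3 against 6.25 to 7.06). Slc25a20 was at 5.26 CPM in pre 2 against 4.44 to 4.54, and Lck at 1.75 in pre 3 against 0.202 to 0.329. Glb1l3, Sh2d2a and Cd3g at 0.252 CPM each in pre 4 were single counts, with 0 in the other pre libraries.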

How the results depend on the processing

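Pre against naive called 0 genes in edgeR under each alternative except the rod index as a covariate, which called 95 (93 higher, 2 lower). DESeq2 called 6 (5 higher, 1 lower). Onset against pre called 20 in DESeq2 (4 higher, 16 lower) and 0 in all others. The cause of these moves was not tested. With the replicate block pre against naive called 0 genes, with 470 at an unadjusted p below 0.05 in place of 832, and the block changed no other call. Leaving out each library gave 0 to 0 calls, with the smallest adjusted p from 0.137 to 1.0. Of 130 genes followed, 120 kept their direction in each alternative in which they could be fitted, which was not every one for genes of low counts. Nefl turned to 0.16 with the rod index, 0.37 with the block and 0.75 without the 4 rod-richest libraries, and ran from -0.49 to 0.32 with 1 library left out. Without those 4 libraries Thy1 was at -0.10, Rp1 1.21, Pde6c 0.068, Otx2 1.38, C1ql2 -0.017 and Mbp 0.015. Gfap was at 1.35 in limma-voom and at -0.48 to 0.16 with 1 library left out, Atf4 at -0.41 to 0.10 and Ddit3 at -0.015 to 0.34. Scaling by RLE or upper quartile moved log2 fold changes by 0.013 and 0.011. Genes under 1 CPM rest on few counts.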
